A study of Mus musculus with 7 samples.

Results

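Cells at the beginning and at the end of the kidney's proximal tubule were compared within 7 whole mouse kidneys, by single-cell RNA sequencing with unique molecular identifiers (UMIs), which count captured RNA molecules. The cells belong to the authors' cluster 3, the proximal tubule cluster of 26482 cells in a matrix of 43745. A cell was called early if it held at least 2 UMIs of Slc5a2 and Slc5a12 together and none of Slc7a13 and Atp11a, and late if it held at least 2 of the second pair and none of the first. This gave 6796 early cells (25.7% of the cluster) and 4402 late cells (16.6%). Another 2119 cells held UMIs of both pairs, 7788 held none of the 4 genes, and 5377 held a single UMI of 1 pair only; all of these were left out of the comparison. All kidneys came from adult C57BL/6 mice of 4 to 8 weeks, with sex not stated. Of the mice, 4 are labelled wild type; the other 3 carry a Cre-dependent membrane reporter (genotypes Cdh16CremTmG, SclCremTmG and Nphs2CremTmG), whose Cre is driven by a tubule epithelial, an endothelial and blood lineage, and a podocyte promoter respectively. No treatment is recorded. The labels do not tie the barcode numbers of the matrix to these mice, and a library is therefore named by its barcode number, from 1 to 7, with no genotype compared.

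The proximal tubule reabsorbs most of what the glomerulus filters. Its early, convoluted part takes up the bulk of glucose, amino acids, phosphate and bicarbonate through high-capacity sodium-coupled carriers. Its late, straight part works at lower luminal concentrations with carriers of higher affinity, secretes organic anions and drugs, and is rich in peroxisomes and in enzymes that metabolise lipids and foreign compounds. Slc5a2 encodes the high-capacity glucose carrier SGLT2 of the early tubule and Slc5a12 a sodium-coupled lactate carrier. Slc7a13 encodes an aspartate and cystine carrier of the straight part, and Atp11a a phospholipid flippase. In mice the straight part also differs between the sexes, with many transporter and P450 genes under androgen control.

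The rule itself fixes the levels of these 4 genes, which are given as a description. Slc5a2 ranged from 566 to 890 and Slc5a12 from 412 to 790 CPM, UMI counts of the summed early cells of a library scaled to a common total, and both are at 0 in late cells by construction. Both early genes were found together in 66.4% of early cells, and both late genes in 66.2% of late cells. Cells just inside the rule, with exactly 2 UMIs, numbered 1939 early and 1275 late; those just outside it, with 1 UMI of 1 pair only, numbered 2981 and 2396. Gatm, a creatine synthesis enzyme that the rule did not use, stood at 1567 CPM in early cells with 2 UMIs, 1527 in the early-pair cells just outside and 1856 in those with 3 or more. On the late side Gatm stood at 382 CPM with 2 UMIs, 569 just outside and 198 with 3 or more. These levels pool the cells of all libraries, so marker UMIs and the make-up by library cannot be told apart in them.

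**Figure D1:**
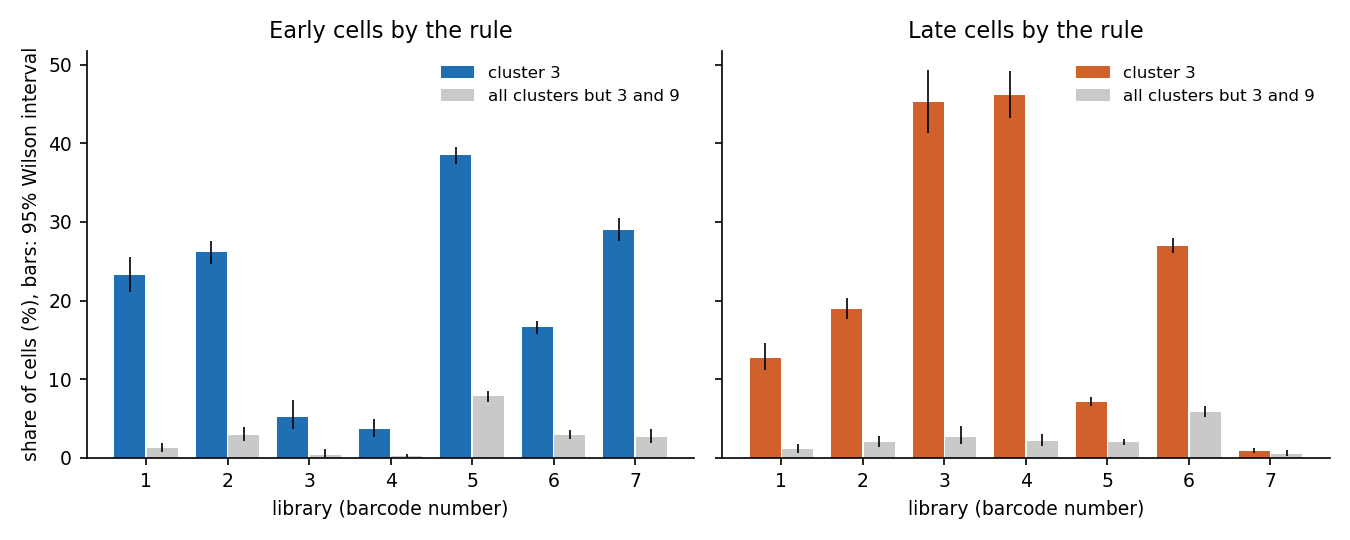
Share of cells (%, vertical axis) that the rule called early (left) or late (right) in each library (horizontal axis, barcode number), in cluster 3 (coloured bars) and in all clusters other than 3 and 9 (grey bars); vertical lines are 95% Wilson intervals. Libraries 3 and 4 hold few early cells and library 7 few late cells, and in library 7 the late share of cluster 3 lies close to that outside it.

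The 7 libraries held the classes in different proportions. Early cells numbered 339, 919, 31, 39, 2961, 1351 and 1156 in libraries 1 to 7, and late cells 186, 666, 267, 498, 549, 2200 and 36. Late cells made up 48.6% ± 34.6 (SD, n = 7) of early plus late cells, from 3.02% in library 7 (95% Wilson interval 2.19 to 4.15%) to 92.7% in library 4 (90.2 to 94.6%). The labels do not record how each kidney was cut and dissociated, so the tissue sampled and the make-up of the kidney cannot be told apart. Summed UMIs per library ranged from 75314 to 10381236 for early and from 129506 to 5682811 for late cells. Intervals cover counting error only.

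Free RNA in droplets puts some UMIs of any abundant gene into every cell. In clusters other than 3 and 9, the rule took 0.185% to 7.82% of cells as early and 0.442% to 5.82% as late, against 3.61% to 38.5% and 0.904% to 46.2% in cluster 3. In library 7 the late share was 0.904% (0.653 to 1.25%) in cluster 3 and 0.442% (0.203 to 0.961%) elsewhere. These intervals overlapped, and the difference was not tested. Library 7 stood apart in other ways. It carried Xist, the RNA of the inactive X chromosome, and no UMI of the Y-linked genes Ddx3y, Uty, Kdm5d and Eif2s3y, while the other 6 libraries had the Y-linked genes and at most 8 UMIs of Xist each. Of its 36 late cells, 35 were chosen by Atp11a alone and none held both late genes. Where leaving out library 7, or libraries 3, 4 (31 and 39 early cells) and 7, ended a call or moved a described fold by over 1.5 times, the result is also given without them. Barcodes shared between pairs of libraries came to at most 2.17% of the smaller library.

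Late cells were deeper than early cells in each library, with a ratio of median UMIs of 1.19 to 1.99; the rule asks for UMIs, so this was not tested. The median mitochondrial share was 20.4% ± 5.36 in late and 16.3% ± 1.69 in early cells (SD, n = 7). It was higher in late cells in 5 of 7 libraries, by 4.08 points on average, and missed the threshold (exact paired permutation test, two-sided, p = 0.0938). Libraries 3 and 4 showed the widest gaps, 10.02 and 9.90 points. The part of depth and mitochondrial share in the gene differences below was examined only by the alternatives in the closing section.

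Of 8934 genes tested by edgeR's quasi-likelihood test with the library as a block, 2250 (25.2%) passed an adjusted p of 0.05. Of these, 1236 (13.8%) were higher in late and 1014 (11.3%) in early cells. At least 2-fold differences numbered 343 (3.84%) towards late and 301 (3.37%) towards early. Library ranges did not overlap for 304 genes (3.4%), and 1269 (14.2%) had the same direction in all 7 libraries. The 644 genes past 2-fold were chosen in a fit of these same libraries, so their agreement with it is only a description. They went the same way as in the joint fit for 98.3% to 99.4% of them in libraries 1, 2, 5 and 6. In libraries 3, 4 and 7, where one class has under 50 cells, the shares were 85.2%, 87.3% and 84.9%. Without library 7 the count of calls was 2280, and without libraries 3, 4 and 7 it was 2499. Of 451 tested genes in the lists described below, 261 passed. None of these changed sign without library 7 or without libraries 3, 4 and 7, while 4 and 15 of them no longer passed and 3 in each case were not tested. The p-values rest on how the late-to-early difference varied over these 7 libraries and on variance that edgeR estimates from all genes together. The block takes up differences in level between libraries.

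Fold changes are given as log2 of late over early with the standard error (SE) of the edgeR fit. Positive values are higher in late cells. The SE draws on the same shared variance and can be narrower than the spread between libraries. For Kap, single libraries ran from 2.87 to 6.85, with an SE of 0.26 by edgeR and 0.52 by DESeq2. For Slc22a29 the SE was 0.35 by edgeR and 1.08 by DESeq2. Levels are CPM of the summed cells after TMM normalisation, as the lowest, median and highest library. Summed levels of gene lists and of markers are CPM without TMM normalisation. Genes are called higher in one class only where they passed that test. Counts over gene lists stand against 13.8% of all genes tested towards late and 11.3% towards early.

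**Figure D2:**
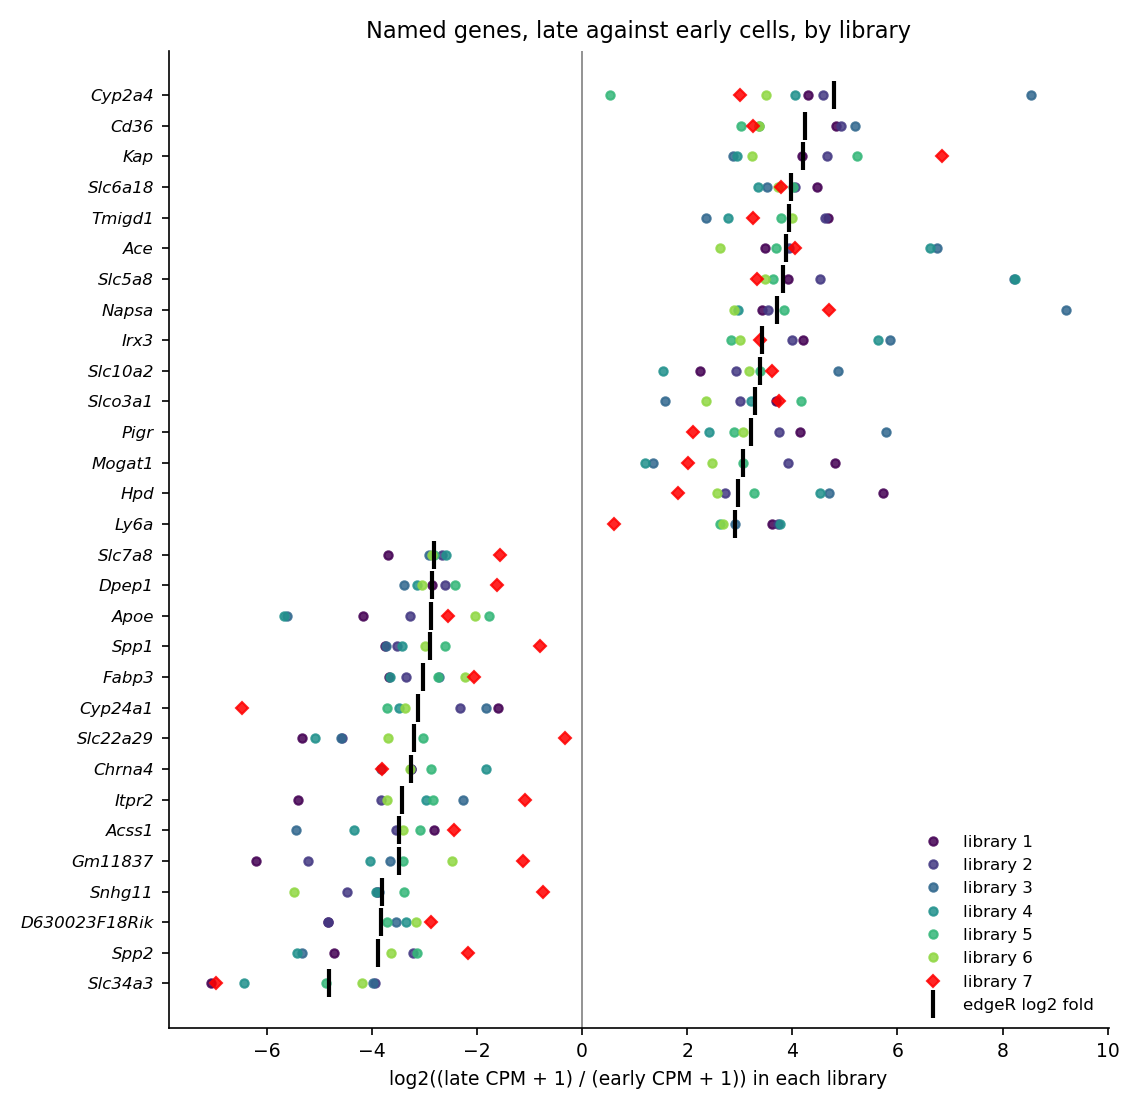
Log2 of late over early CPM (each plus 1; horizontal axis) in each of the 7 libraries (points, library 7 as red diamonds) for the named genes, 15 a side (vertical axis), with edgeR's log2 fold as a black bar. All points of a gene lie on the same side of 0, which the rule for naming required, and library 7 lies nearest to 0 of the 7 for 15 of the 30 genes, 11 of them on the early side.

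The 15 genes named on each side had the largest folds among those past the test with an average log2 CPM of at least 5 and the same sign in all 7 libraries. The rule for naming so fixes their size and sign. The largest adjusted p among the 30 was that of Slc22a29, 1.08e-09 (edgeR). Of the 30, 19 had library ranges that did not overlap.

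Several of the genes highest in late cells move solutes across the brush border. Slc6a18, a neutral amino acid carrier, lay at 9.19, 23.0 and 49.9 CPM in early and 168, 276 and 703 in late cells, a log2 fold of 3.98 ± 0.13. Slc5a8, a sodium-coupled monocarboxylate carrier, rose from 0, 23.8 and 44.5 to 296, 347.2 and 505 CPM (3.83 ± 0.15). Slc10a2, the apical bile acid carrier better known from ileum, lay at 0, 6.51 and 13.2 against 28.1, 56.3 and 172 CPM (3.38 ± 0.16). For these carriers the lowest late library stood above the highest early library. Slco3a1, an organic anion carrier, had a log2 fold of 3.30 ± 0.19, and its ranges overlapped.

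Other late genes encode proteases and membrane proteins. Ace, angiotensin-converting enzyme, was at 0, 2.10 and 6.03 CPM in early and 42.6, 50.2 and 107 in late cells (3.87 ± 0.22). Napsa, an aspartic protease, was at 0, 53.3 and 71.7 against 534, 582 and 998 CPM (3.70 ± 0.16). Tmigd1, an immunoglobulin-domain membrane protein, had a log2 fold of 3.94 ± 0.17. None of these ranges overlapped. The transcription factor Irx3 (3.42 ± 0.18) and Pigr, the receptor that carries polymeric immunoglobulin across epithelia (3.21 ± 0.17), also had separate ranges.

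Others act in lipid, drug and amino acid metabolism. Cd36, a fatty acid uptake receptor, lay at 0.601, 5.61 and 40.9 CPM in early and 12.3, 159 and 454 in late cells (4.25 ± 0.20). Mogat1, a monoacylglycerol acyltransferase, had a log2 fold of 3.06 ± 0.21, and Hpd, an enzyme of tyrosine breakdown, one of 2.97 ± 0.18. Cyp2a4, a steroid-hydroxylating P450, led the side at 4.80 ± 0.28, from 0, 1.13 and 20.5 to 0.455, 46.5 and 372 CPM. Its fold rests on only 12 early UMIs, against 1296 late UMIs. Its reads cannot be kept wholly apart from those of its near-identical neighbour Cyp2a5. Cyp2a4 fell under the low-count filter without libraries 3, 4 and 7. Ly6a, a surface protein of the Ly6 family, was higher in late cells by 2.91 ± 0.18.

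Kap, kidney androgen-regulated protein, lay at 23.7, 1340 and 6112 CPM in early and 2850, 21225 and 47452 in late cells (4.19 ± 0.26; 3.84 without library 7). The lowest value on each side was that of library 7, and the next lowest that of library 5, 215 in early and 8100 in late cells. Its RNA was also found in cells that should lack it. After thinning each cell to 1000 UMIs, Kap was found in 32.8% of early and 96.0% of late cells, and in 71.0% of cells of cluster 14. That cluster should lack the gene: the T cell receptor gene Cd3g was found in 71.0% of its cells and in 0.0491% of cluster 3. Before thinning the shares for Kap were 49.97% and 97.3%, at median depths of 2634 UMIs in early, 2882 in late and 1875 in cluster 14 cells; 147 early and 141 late cells were too shallow to thin. Within libraries, the early share lay below that of cluster 14 in 5 of 7, for example at 57.7% against 85.0% in library 1 and 75.4% against 84.9% in library 6. It lay above it in library 3, at 93.5% of 31 cells against 87.3%, and in library 7, at 1.58% against 0% of 39 cells. The late share lay above that of cluster 14 in each library, from 16.7% in library 7 to 100% in libraries 3 and 4.

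Slc34a3, a sodium-phosphate carrier, had the widest fold of the named genes on the early side. It lay at 46.1, 114 and 133 CPM in early and 0, 2.00 and 6.44 in late cells, a log2 fold of -4.82 ± 0.21. Cyp24a1, which inactivates vitamin D hormone, lay at 34.6, 94.0 and 190 against 0, 11.6 and 30.4 CPM (-3.12 ± 0.19). Neither gene's ranges overlapped. Cyp27b1, which makes the hormone, was under the count filter, with 335 UMIs in all early and 22 in all late cells.

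Other early genes encode secreted or lipid-carrying proteins. Spp2, a secreted phosphoprotein, lay at 393, 806 and 1024 CPM in early and 19.0, 36.7 and 100.1 in late cells (-3.89 ± 0.20). Spp1, osteopontin, lay at 346, 875 and 1265 against 25.1, 78.0 and 646 CPM (-2.89 ± 0.20; -3.24 without library 7), and the 646 was library 7. Fabp3, a fatty acid binding protein (-3.03 ± 0.15), Apoe, apolipoprotein E (-2.88 ± 0.25), and Acss1, the mitochondrial acetyl-CoA synthetase (-3.47 ± 0.16), were higher in early cells. Fabp1, the liver-type binding protein, was under the filter with 171 early and 4 late UMIs.

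Carriers, peptidases and signalling genes completed the side. Slc7a8, an amino acid exchanger of the basolateral membrane, had a log2 fold of -2.82 ± 0.14, and Dpep1, a brush border dipeptidase, one of -2.85 ± 0.14. The nicotinic receptor subunit Chrna4 (-3.26 ± 0.16) and the inositol trisphosphate receptor Itpr2 (-3.42 ± 0.22) were higher in early cells. The transcripts Snhg11, a small nucleolar RNA host gene, D630023F18Rik and Gm11837 had log2 folds of -3.81 ± 0.27, -3.82 ± 0.18 and -3.48 ± 0.26. Late cells of library 7 held 431 CPM of Snhg11 and 86.1 of Itpr2, against at most 71.6 and 12.3 in the other libraries, and the folds without library 7 were -4.28 and -3.67. Slc22a29, of the organic anion carrier family, had -3.20 ± 0.35, and library 7 weighed on it: 234 CPM in early and 187 in late cells there, and -4.50 without that library. Slc22a29 has close paralogs (Slc22a28, Slc22a30) among which the counting could split reads.

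The stretches upstream of the genes that led each side are shown to give their regulatory context, since proximal tubule promoters are classic sites of the factor HNF4. They come from RefSeq (GRCm38.p6), up to 250 bases before the start, cut to the stretch free of GENCODE exons, and capitals mark a motif match. On the late side they lie at chr7:26306942-26307168 (plus strand, before Cyp2a4) and chr5:17835897-17836146 (minus strand, before the RefSeq start of Cd36). That start lies inside the GENCODE gene Cd36, chr5:17781690-17888801 on the minus strand, and not at its outer end. On the early side they lie at chr2:25234365-25234475 (minus strand, before Slc34a3) and chr1:88406760-88406960 (plus strand, before Spp2).
Cyp2a4: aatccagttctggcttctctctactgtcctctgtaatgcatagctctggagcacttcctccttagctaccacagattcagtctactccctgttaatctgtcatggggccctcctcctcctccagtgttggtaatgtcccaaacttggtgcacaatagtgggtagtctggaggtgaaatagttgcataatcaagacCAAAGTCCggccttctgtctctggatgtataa
Cd36: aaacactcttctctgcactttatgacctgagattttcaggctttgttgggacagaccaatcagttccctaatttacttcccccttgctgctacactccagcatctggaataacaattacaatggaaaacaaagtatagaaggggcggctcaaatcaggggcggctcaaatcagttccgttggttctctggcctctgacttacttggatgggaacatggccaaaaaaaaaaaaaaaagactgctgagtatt
Slc34a3: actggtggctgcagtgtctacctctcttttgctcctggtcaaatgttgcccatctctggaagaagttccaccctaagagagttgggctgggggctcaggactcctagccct
Spp2: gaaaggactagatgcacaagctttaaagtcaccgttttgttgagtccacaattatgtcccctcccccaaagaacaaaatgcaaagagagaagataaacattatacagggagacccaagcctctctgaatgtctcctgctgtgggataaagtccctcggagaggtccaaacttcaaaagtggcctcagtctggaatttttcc
The HNF4 letters CAAAGTCC occur in the Cyp2a4 stretch at position -55 from the RefSeq start, and in 393 of all 32851 promoters of 250 bases (1.20%, both strands). They occur in none of the other 3 stretches.

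Sugar carriers went both ways. Slc2a2, GLUT2, the basolateral glucose exit, lay at 196, 215 and 300.2 CPM in early and 71.2, 111 and 136 in late cells (-1.14 ± 0.11). Slc5a1, SGLT1, the high-affinity glucose carrier, lay at 0, 3.06 and 11.1 against 24.6, 37.4 and 71.8 CPM (2.87 ± 0.17). Slc5a10, a mannose and fructose carrier, was higher in late cells by 2.69 ± 0.16. Of 6 sugar carriers tested beside the rule's own, 2 were higher in late and 2 in early cells. Slc5a11 and the fructose carrier Slc2a5 did not pass, at 0.30 and 0.32.

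**Figure D3:**
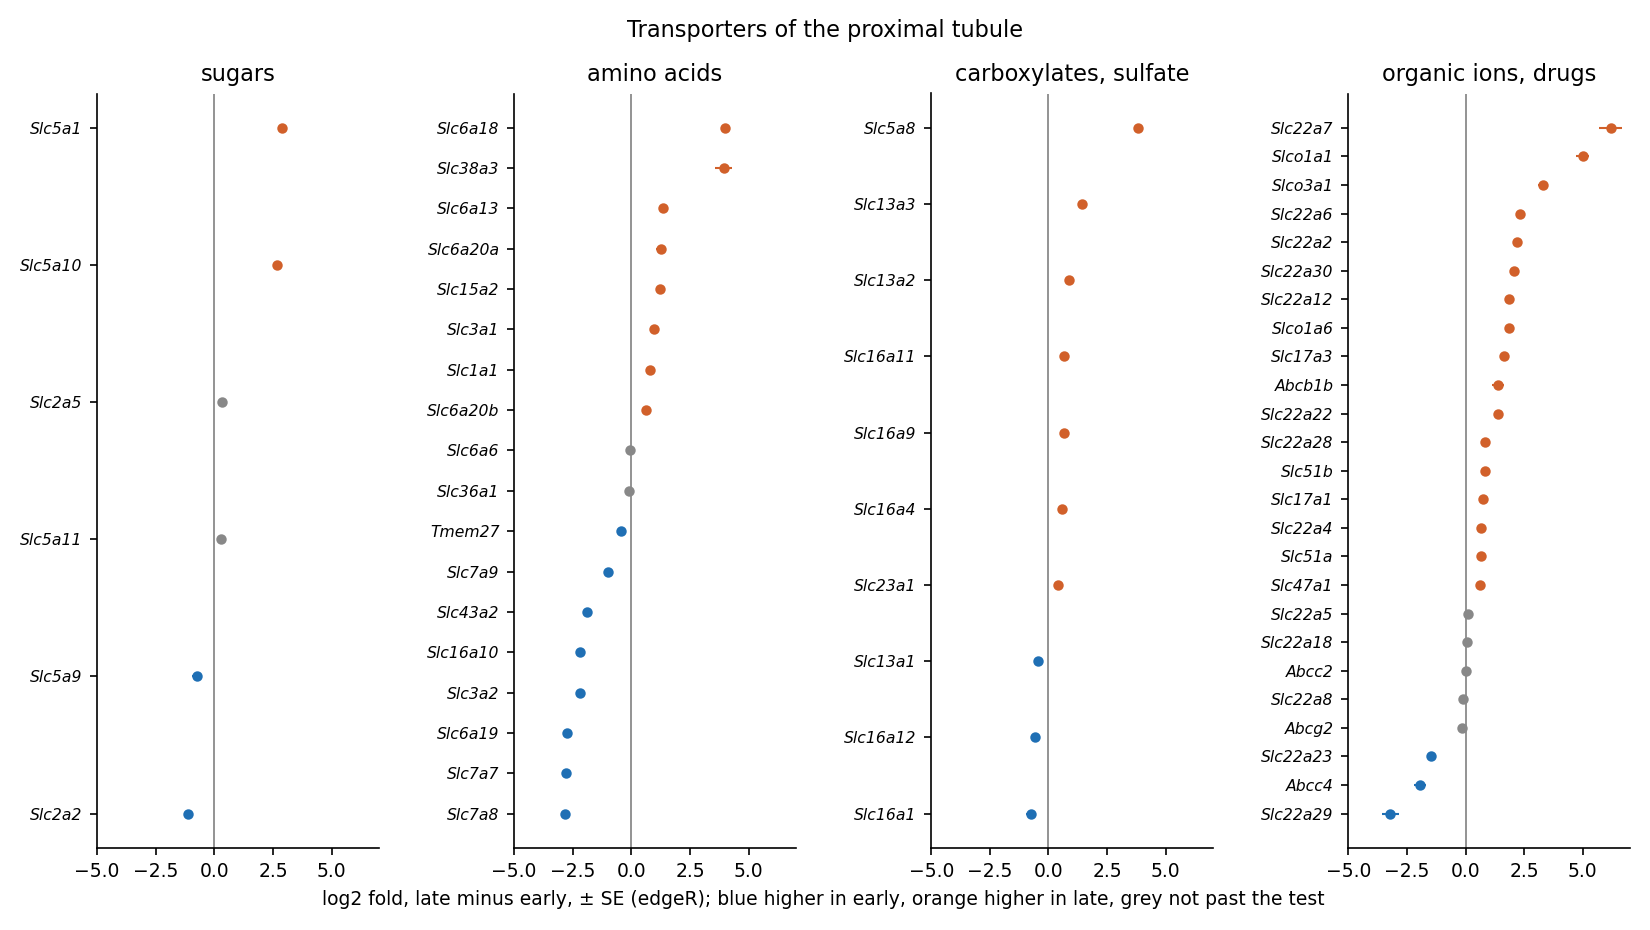
Log2 fold of late over early (horizontal axes; bars: SE of the edgeR fit) for carriers of sugars, amino acids, carboxylates and sulfate, and organic ions and drugs. Carboxylate and organic ion carriers lie mostly to the right, amino acid carriers on both sides, and grey points did not pass the test. The point of Slc22a7 rests on 5 early UMIs, and that of Slc38a3 on very low early levels.

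Of 24 phosphate, bicarbonate, water and sodium genes tested, 8 were higher in late and 6 in early cells, with a median log2 fold of 0.01 against -0.01 over all genes tested. The main phosphate carrier Slc34a1 was higher in early cells, at 2892, 3510.2 and 3978 CPM against 2271, 2599 and 3222 in late cells (-0.34 ± 0.10), and its ranges overlapped, unlike those of Slc34a3. The bicarbonate exit carrier Slc4a4 (-0.61 ± 0.12) and the carbonic anhydrases Car2 (-1.29 ± 0.14), Car12 (-1.17 ± 0.12) and Car14 (-0.80 ± 0.13) were higher in early cells. Car4, the anhydrase of the luminal membrane, was higher in late cells (1.302 ± 0.141). So was the water channel Aqp1, at 78.1, 103 and 207 against 256, 312 and 437 CPM (1.38 ± 0.12). The sodium pump gene Atp1b1 did not pass (0.15).

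Amino acid carriers split evenly: of 18 tested, 8 were higher in late and 8 in early cells. Slc6a19, the broad neutral carrier, lay at 338, 574 and 877 CPM in early and 58.1, 79.0 and 119.8 in late cells (-2.76 ± 0.12), a direction opposite to that of its relative Slc6a18. The basolateral exchanger Slc7a7 (-2.77 ± 0.12), its heavy chain Slc3a2 (-2.20 ± 0.13), the aromatic amino acid exit Slc16a10 (-2.17 ± 0.16) and Slc43a2 (-1.89 ± 0.13) were all higher in early cells. The cystine carrier's subunits went opposite ways. The light chain Slc7a9 lay at 133, 183 and 233 CPM in early and 77.0, 99.2 and 108 in late cells (-0.99 ± 0.12). Its partner in the textbook dimer, the heavy chain Slc3a1, lay at 20.5, 74.3 and 123 against 115, 165 and 266 CPM (0.95 ± 0.13); Slc3a1 also pairs with Slc7a13, which chose the late cells. Other late carriers were the acidic amino acid carrier Slc1a1 (0.80 ± 0.12), the peptide carrier Slc15a2 (1.22 ± 0.15) and Slc6a13 (1.35 ± 0.15). Slc38a3, a glutamine carrier, also passed towards late, from a median of 0.301 to 7.18 CPM. These levels are near that of a single UMI in library 7, so no fold is given. Below the filter, Slc1a4 had 15 early and 235 late UMIs and Slc7a12 had 9 and 69.

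All 10 carboxylate and sulfate carriers tested passed, 7 towards late and 3 towards early (median 0.61). The dicarboxylate carrier Slc13a3 lay at 96.5, 150.1 and 300.3 CPM in early and 331, 488 and 618 in late cells (1.42 ± 0.12). The citrate carrier Slc13a2 was higher in late cells by 0.88 ± 0.15. The sulfate carrier Slc13a1 (-0.46 ± 0.11; not past the test without libraries 3, 4 and 7), the monocarboxylate carrier Slc16a1 (-0.75 ± 0.19) and Slc16a12 (-0.57 ± 0.12) were higher in early cells.

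Of 26 organic ion and drug carriers tested, 17 were higher in late and 3 in early cells (median 0.79). Slc22a6, OAT1, which takes organic anions up from blood, lay at 86.9, 114 and 195 CPM in early and 294, 598 and 1167 in late cells (2.30 ± 0.13). Slc22a8, OAT3, which serves the same step, did not pass, with 143, 219 and 394 against 151, 187 and 424 CPM (-0.13 ± 0.11). The cation carrier Slc22a2 (2.19 ± 0.14) and the urate carrier Slc22a12 (1.87 ± 0.11) were higher in late cells. The efflux carrier Slc47a1 was higher in late cells by 0.63 ± 0.11, and Abcc4 in early cells by a log2 fold of -1.95 ± 0.24.

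A few late carriers were nearly silent in early cells and uneven between libraries. Slc22a7, OAT2, had 5 early and 236 late UMIs in all; it passed the filter through its late cells only, so no fold is given. Its late level was highest in library 7, at 115 CPM, against 3.31 in library 6. Slco1a1 had 30 early and 3535 late UMIs (4.99 ± 0.28), and neither gene passed the filter without libraries 3, 4 and 7. It was at 849 and 813 CPM in the late cells of libraries 4 and 3, at 1.36 in library 5 and at 0 in library 7. So the 36 late cells of library 7, where the level of Slc22a7 was highest, held no Slco1a1 UMI.

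Of 25 genes of receptor-mediated protein uptake tested, 2 were higher in late and 6 in early cells, and 17 did not pass. Megalin, Lrp2, lay at 604, 748 and 1034 CPM in early and 878, 1165 and 1679.7 in late cells (0.64 ± 0.11). Cubilin, Cubn, did not pass (0.12 ± 0.11). Its partner amnionless, Amn (-0.66 ± 0.11), the adaptor Dab2 (-0.60 ± 0.10) and the lysosomal proteases Ctsb (-0.67 ± 0.11) and Ctsl (-0.77 ± 0.12) were higher in early cells.

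Of 22 brush border genes tested, 11 were higher in late and 7 in early cells (median 0.47). Mep1a, the alpha subunit of the protease meprin, lay at 74.3, 102 and 161 CPM in early and 438, 626 and 997 in late cells (2.52 ± 0.12). Mep1b, its beta subunit, had 3 UMIs in all early and 190 in all late cells. The glutathione-cleaving enzyme Ggt1 (1.54 ± 0.11), the dipeptidase Cndp2 (2.84 ± 0.13), neprilysin, Mme (2.16 ± 0.19), and trehalase, Treh (2.22 ± 0.18), were higher in late cells. Besides Dpep1, the early side held alkaline phosphatase, Alpl (-1.10 ± 0.12), Folh1 (-1.10 ± 0.14) and Xpnpep2 (-1.69 ± 0.34). Dpp4 and Anpep did not pass, at -0.09 and 0.43.

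**Figure D4:**
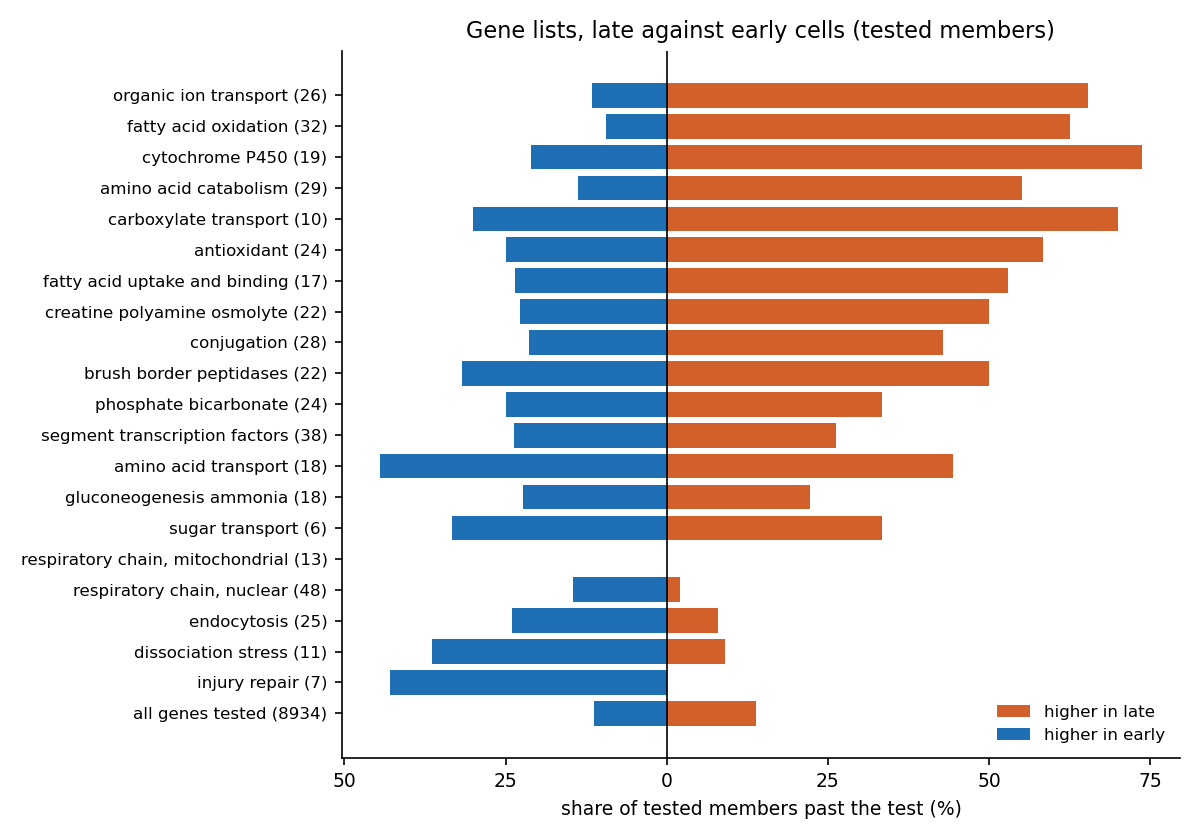
Share of the tested members of each gene list (number in brackets) that passed edgeR's adjusted p of 0.05 towards late (orange, right) and towards early (blue, left), with all 8934 genes tested at the bottom. Cytochrome P450, carboxylate, organic ion and fatty acid oxidation genes have most members on the late side, and the respiratory chain has few calls.

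Fatty acid oxidation had 20 of 32 tested members higher in late and 3 in early cells, with a median of 0.52. Genes of peroxisomal steps went both ways. Ehhadh (1.73 ± 0.13), Acaa1b (1.61 ± 0.13) and Crot (1.19 ± 0.12) were higher in late cells, and the thiolase Acaa1a (-0.62 ± 0.12) in early cells. Acaa1a and Acaa1b are close copies, so their single values are uncertain. The mitochondrial dehydrogenase Acadm lay at 104, 159 and 207 against 344, 408 and 483 CPM (1.19 ± 0.12). The ketone body enzyme Bdh1 had the widest fold of the list, 3.34 ± 0.24. The thiolase Acaa2 (-1.44 ± 0.14) and the lipid-sensing receptor Ppara (-0.48 ± 0.15) were also higher in early cells.

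Fatty acid uptake and binding genes were higher in late cells for 9 of 17 tested and in early cells for 4 (median 0.38). Slc27a2, a fatty acid carrier and acyl-CoA synthetase, lay at 471, 634 and 952 CPM in early and 1558, 2158 and 2417 in late cells (1.60 ± 0.11). Lipoprotein lipase, Lpl (2.49 ± 0.16), and Angptl4, its inhibitor (1.57 ± 0.22), were both higher in late cells. Acsl1, a long-chain acyl-CoA synthetase, was higher in early cells (-1.002 ± 0.156).

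Of 19 genes tested in the list of P450 enzymes and their reductase, 14 were higher in late and 4 in early cells, with a median of 2.01, the highest of the metabolic lists. Cyp2e1, an ethanol-oxidising enzyme, lay at 24.9, 119 and 299.5 CPM in early and 28.7, 768 and 893 in late cells (2.39 ± 0.14). Cyp51, a cholesterol synthesis enzyme, lay at 0, 16.8 and 33.1 against 56.9, 121 and 266 CPM (2.32 ± 0.16). The fatty acid hydroxylases Cyp4a10 (2.46 ± 0.16) and Cyp4a14 (2.76 ± 0.18) and the monooxygenase Cyp4b1 (2.01 ± 0.16) were higher in late cells. Por, the reductase that serves them, was higher by 0.51 ± 0.11. With Cyp24a1, the early side held Cyp2d26 (-2.36 ± 0.21), Cyp2d22 (-0.72 ± 0.21) and Cyp27a1 (-0.47 ± 0.15). Members of the Cyp2d, Cyp4a, Ugt2b and Gsta families are close copies, so single values in them are uncertain.

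Conjugation enzymes were higher in late cells for 12 of 28 tested and in early cells for 6 (median 0.23). Nat8, which makes mercapturic acids, lay at 26.6, 72.0 and 146 CPM in early and 144, 500.1 and 717 in late cells (2.54 ± 0.14). Ugt3a1 (2.40 ± 0.13), Ugt2b37 (3.70 ± 0.17) and Gstm1 (1.49 ± 0.13) were on the same side. Ugt2b34 (-4.86 ± 0.25; under the filter without library 7) and Gsta2 (-1.54 ± 0.25) were higher in early cells.

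Glucose and ammonia production showed 4 of 18 genes towards each side (median -0.06). Pck1, the rate-limiting enzyme of glucose synthesis, was higher in late cells by 0.65 ± 0.11. Fbp1 (-0.18 ± 0.10), G6pc (-0.05 ± 0.14) and glutamine synthetase, Glul (-0.27 ± 0.12), did not pass.

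Creatine, polyamine and osmolyte genes were higher in late cells for 11 of 22 tested and in early cells for 5 (median 0.37), yet their summed level, 7641 ± 829 CPM in early and 5703 ± 510.1 in late cells, was lower in late cells in all 7 libraries. Gatm, which makes the precursor of creatine, lay at 1605, 1884 and 2077 CPM in early and 153, 272 and 761 in late cells (-2.71 ± 0.16), and the 761 was library 7. After thinning, Gatm was found in 74.5% of early and 18.4% of late cells and in 10.7% of cluster 14, with libraries pooled. Within libraries, the late share lay above that of cluster 14 except in library 6. There it was 13.5% of 2077 late cells against 16.6% of cluster 14. Before thinning the early and late shares were 91.8% and 38.3%. The arginine synthesis enzymes Asl (-1.72 ± 0.11) and Ass1 (-0.56 ± 0.10) and the hydroxyproline enzyme Prodh2 (-2.65 ± 0.18) were higher in early cells. The choline and betaine enzymes Bhmt2 (2.62 ± 0.15), Dmgdh (2.15 ± 0.18) and Chdh (0.74 ± 0.12) were higher in late cells.

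Amino acid breakdown was higher in late cells for 16 of 29 genes tested and in early cells for 4 (median 0.40). Of the tyrosine breakdown enzymes, Hgd (0.28 ± 0.11; not past the test without library 7 or without libraries 3, 4 and 7) and Fah (0.74 ± 0.11) were, like Hpd, higher in late cells. Within the glycine cleavage system Gldc was higher in early cells (-2.81 ± 0.23), Amt in late cells (0.50 ± 0.14), and Gcsh did not pass (-0.02 ± 0.11).

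Antioxidant genes were higher in late cells for 14 of 24 tested and in early cells for 6 (median 0.39). Their summed level was nonetheless 43630 ± 8492 CPM in early against 21429 ± 2840 in late cells (SD, n = 7), lower in late in all 7 libraries. Gpx3, the secreted glutathione peroxidase, averaged 34106 ± 7354 CPM in early cells after TMM normalisation, which the sum did not use. It lay at 21475, 38041 and 42222 CPM in early and 7244, 8167 and 16083 in late cells (-1.82 ± 0.11). The glutathione synthesis genes Gclm (1.11 ± 0.11), Gss (1.02 ± 0.13) and Gclc (0.75 ± 0.13) and catalase, Cat (0.75 ± 0.12), were higher in late cells. The metallothioneins Mt1 (-1.95 ± 0.14) and Mt2 (-1.27 ± 0.18) and the selenoprotein Sepw1 (-2.71 ± 0.19) were higher in early cells.

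Of 38 transcription factors and receptors tested, 10 were higher in late and 9 in early cells (median 0.20). Osr2, an odd-skipped factor, lay at 18.1, 35.8 and 46.1 CPM in early and 0, 1.47 and 7.28 in late cells (-3.37 ± 0.28). Maf (-1.21 ± 0.11), the coactivator Ppargc1a (-1.02 ± 0.11) and Pax2 (-0.97 ± 0.20) were higher in early cells. Hnf4g (1.45 ± 0.16) was higher in late cells. Hnf4a (0.22 ± 0.13), which drives proximal identity, did not pass. Esr1, the oestrogen receptor, was under the filter with 2 early and 158 late UMIs.

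The nuclear genes of the respiratory chain were nearly level, with 1 of 48 higher in late and 7 in early cells and a median of -0.04. Of the 13 mitochondrial genes for proteins none passed. Housekeeping RNAs with almost equal levels included Rps2, at 1728 ± 498 CPM in early and 1722 ± 541 in late cells, and Rpl10a, at 831 ± 193 and 829 ± 214 (SD, n = 7).

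Genes known in mouse kidney for differing between the sexes were chosen with earlier results of these data known. Of 14 tested, 13 (92.9%) were higher in late cells and none in early cells (median 2.02). Over all genes tested the shares were 13.8% and 11.3%. The list shares members with others, so it is not a separate result. Among shared members, Slc7a12 (amino acid carriers) and Cyp7b1 (P450 genes) were under the filter and are not among the 14 tested. The summed level of the list ranged from 1515 to 10277 CPM in early and from 6120 to 51899.7 in late cells. The sum averaged 5091 CPM in early and 30601 in late cells. Kap alone averaged 2381 and 25035 CPM after TMM normalisation, and its RNA was also found in cells that should lack it. Akr1c21, a steroid dehydrogenase (0.83 ± 0.14), and Slc22a30 (2.08 ± 0.13) were in the list, and the prolactin receptor Prlr did not pass (0.13 ± 0.19). No comparison of animals of either sex was made, since the labels do not state it.

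Dissociation and injury genes were read as checks on tissue handling. Of 11 dissociation-stress genes tested, 4 were higher in early and 1 in late cells (median -0.40), with Jun at -0.93 ± 0.16 and Dusp1 at -0.79 ± 0.13. That median had an SD of 0.48 over libraries. The summed level of the 20 listed genes was 1700 ± 345 CPM in early and 1688 ± 313 in late cells (SD, n = 7). It was higher in late cells in 5 of 7 libraries. Fos (102 early and 13 late UMIs) and Egr1 (119 and 17) were under the filter. Of 7 injury genes tested, Spp1, Sox4 (-2.33 ± 0.26) and Igfbp7 (-0.35 ± 0.12; -0.10 and not past the test without libraries 3, 4 and 7) were higher in early cells and none in late cells. The injury marker Havcr1 had 0 early and 9 late UMIs. Of 3 cell cycle genes tested, Mki67 was higher in early cells (-1.10 ± 0.36; not past the test without libraries 3, 4 and 7) and the other 2 did not pass. The part of tissue handling in the results was not tested.

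Markers of other cells were read in both classes. No podocyte, endothelial, immune or red cell marker passed the count filter. The summed level of 5 podocyte markers was 0 to 3.92 CPM in early and 0 to 2.34 in late cells, and that of 5 endothelial markers 0 to 11.3 and 0 to 11.4. The 9 immune markers summed to 0 to 193 CPM in early and 0 to 19.6 in late cells. The 5 red cell markers summed to 0.289 to 24.9 and 0 to 21.4 CPM, with Alas2 at 0 in both. The 5 loop markers summed to 36.3 to 147 and 23.2 to 107 CPM, and the 5 distal convoluted tubule markers to 122 to 266 and 116 to 243. The 6 thin limb markers present summed to 28.2 to 146 CPM in early and 26.4 to 172 in late cells, with Fst, Bst1 and the endothelial Plvap at 0 UMIs in late cells. Only 2 of these markers passed the test: the collecting duct gene Fxyd4, higher in early cells (-1.13 ± 0.21), and Akr1b3, an osmolyte enzyme as well as a thin limb marker, higher in late cells (0.97 ± 0.20). The 7 collecting duct markers summed to 37.8 to 147 CPM in early and 7.73 to 66.6 in late cells; their part in the differences was not tested.

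**Figure D5:**
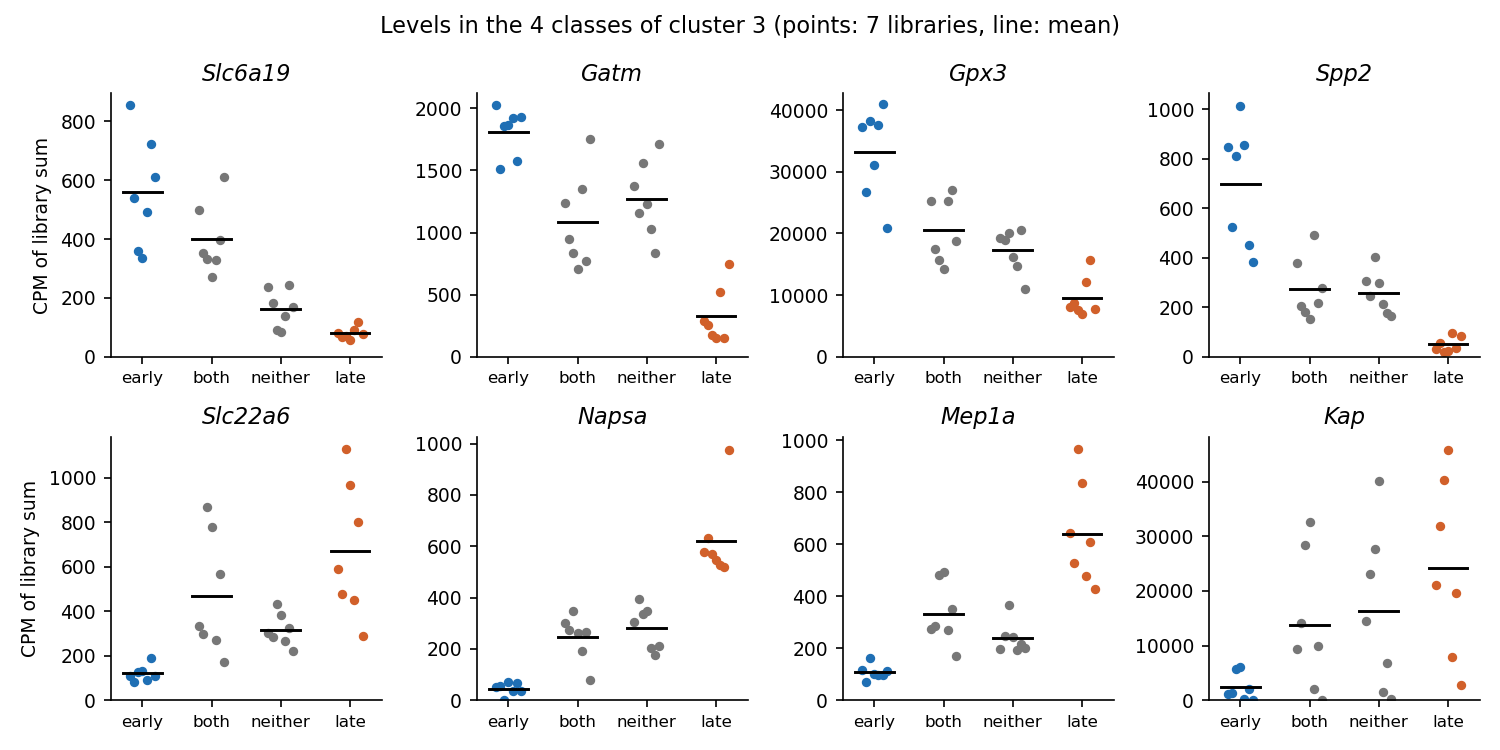
CPM of the summed cells in each library (points, vertical axes from 0) and their mean (line) for 8 genes in early cells, cells with both marker pairs, cells with neither and late cells of cluster 3. Cells with both or neither marker pair lie between early and late cells for all 8 genes by their means.

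Cells with both or neither marker pair were left out by the rule, and their levels are given as a description. The 30 named genes were chosen for wide folds between early and late cells, so an intermediate level of other cells in them supports nothing further. By the means of the libraries, cells with both pairs lay between the classes for 30 of these genes and cells with neither for 28. In single libraries, 26 to 30 and 23 to 30 of them did so. The median position on the way from early (0) to late (1) was 0.534 with both pairs (0.241 to 0.657 in single libraries) and 0.565 with neither (0.499 to 0.663). Slc34a1, which is not among the 30, was lower in cells with neither pair, at 1817 CPM on average, than in early (3336) and late cells (2637). Slc6a19 averaged 559 ± 188 CPM in early cells, 399 ± 117 with both pairs, 163 ± 63.8 with neither and 79.8 ± 19.8 in late cells (SD, n = 7). Mep1a averaged 108 ± 28.3, 333 ± 119, 237 ± 61.5 and 640 ± 196 CPM in the same order.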

How the data were processed

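Per the labels' protocols, libraries were made from single cells of 7 mouse kidneys with a Chromium 3′ kit. Per the submitters' processing notes, Cell Ranger 1.3 and STAR were used with a GRCm38 build; cell filters and clustering settings are not given in the sources used here. The authors deposited raw UMI counts of 16272 genes in 43745 cells, with a cluster number for each cell; the series' design text states 57979 cells. Each cell’s library was read from its barcode number.

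Counts of the chosen cells were summed per library and class (at least 5 cells), without the 4 genes of the rule, and tested with edgeR 4.0.16 in R 4.3.3: TMM, filterByExpr (at least 10 counts), a quasi-likelihood F test with library as a block, and Benjamini-Hochberg adjustment over all genes tested. Both classes came from the same kidneys, which is why they were paired. The SE of a log2 fold was derived from the F statistic. Chosen cells held 708 to 13643 UMIs. No doublet caller was run; cells with both marker pairs were left out by the rule, and leaving out the deepest 5% of cells was an alternative. Counts were also simulated from the model of the fit itself, with the libraries' depths and the same fold in every library. On these the late against early fit called 97 of 99 genes changed 2-fold, 97 of 97 changed 4-fold and 9 of 8597 unchanged ones (8793 tested). Real folds differed between libraries, for Cyp2a4 from 0.54 to 8.54, so these counts do not measure how often real calls are right.

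The members, gene lists and tests were chosen with earlier results of these data known. The named genes are the 15 with the largest fold in each direction among genes past the test that reached 10 counts in each class and an average log2 CPM of 5 and had the same sign in every library. Members of the gene lists and up to 6 near-equal abundant genes were also named. Lists are described by counts and medians, with no test. Gene positions are from GENCODE M21. Some list members are not reported here; the counts over lists include them.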

Additional observations from a re-analysis of the deposited data

Results flagged for a closer look

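Of 33 sets of 7 library values examined, 3 had a library far from the other 6 by Dixon's criterion; chance alone sets off about 1 in 20 such sets. For Napsa, library 3 gave a log2 of late over early of 9.21 against a median of 3.54, with 0 CPM in its 31 early cells. For Ly6a, library 7 gave 0.60 against a median of 2.91. For Spp1, library 7 gave -0.79 against a median of -3.42. All 3 kept their direction without the library concerned.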

How the results depend on the processing

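The 30 named genes kept their direction and their call in all 639 values computed under the alternatives. Genes under the filter of a setting have no value there. The naming rule chose these genes for size, call and sign in the same libraries, so this was largely fixed in advance. In no setting did a gene called in both fits change direction. Called again or not, 2244 of 2250 calls kept their direction with no block. With chosen cells thinned 1562 of 1564 did, and thinned before the rule 820 of 825. The count of calls, 2250, was 1255 with no replicate block, 1201 with the chosen cells thinned to 1000 UMIs (5079 genes tested) and 604 with cells thinned before the rule was applied (2226 tested). It was 2824 with no low-count filter (15470 tested), 1643 with DESeq2 1.42.0, 2083 with cells over a mitochondrial share of 25% left out, and 1540 to 2360 with each library left out in turn. The late share of calls, 54.9%, stayed between 51.8% and 57.1%. With a single gene on each side, calls numbered 1762 (Slc5a2 against Slc7a13) and 1910 (Slc5a12 against Atp11a). List medians stayed within the spread between libraries, the SD of the list's median over libraries, in 453 of 462 values. That is a loose limit, since the spread exceeded some medians. It was 0.69 for brush border genes (median 0.47) and 0.48 for dissociation genes (median -0.40). The dissociation median counted as unmoved at -0.05 with no replicate block. Requiring at least 20 cells per sum left every sum in place, so its 21 values could not move. The exceptions were amino acid carriers at -0.28 with chosen cells thinned and -0.57 thinned before the rule, where sugar carriers were also at -1.19, P450 genes at 1.24, creatine and osmolyte genes at -0.049, amino acid breakdown at 0.57 and injury genes at -1.58. Antioxidant genes were at 0.26 with at least 1 UMI, and fatty acid uptake and binding at 0.53 under the mitochondrial limit. Thinning leaves fewer members tested; otherwise the cause was not tested. With at least 1 UMI the mitochondrial gap was 4.29 points (exact paired permutation test, p = 0.0469), and 4.38 points without library 7 (p = 0.0938). In the alternative without libraries 3, 4 and 7, chosen after seeing the data, 2499 genes were called.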

Other observations

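Haemoglobin RNA, which red blood cells make, was all but absent from early and late cells, with 80 and 88 UMIs of the 4 haemoglobin genes in all. Of the haemoglobin UMIs of cluster 3, 97.3% lay in cells with neither marker pair, and 6 of those 7788 cells, each with at least 20 such UMIs, held 27132 of the 27194.

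Cluster 9, which joins proximal tubule and cell cycle genes, was outside the comparison. The early rule took 214 of its 601 cells (35.6%) and the late rule 19 (3.16%), against 25.7% and 16.6% in cluster 3. Of the 601 cells, 552 came from library 5, where the rule took 199 as early and 17 as late, and the late share of early plus late cells of cluster 3 was 15.6% in that library.

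The late pair itself was uneven between libraries. Both late genes were found together in 29.9% of the late cells of library 5 and in none of library 7, against 65.6% to 80.1% in the other 5.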
